A study of Schizosaccharomyces pombe with 2 samples.

Results

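The right end of chromosome I of fission yeast (Schizosaccharomyces pombe) was covered by 38 gene features on the arrays. They were chosen by name alone, as the features of 5 cosmids (SPAC1039, SPAC922, SPAC869, SPAC186 and SPAC750) that lie at this end, with 7 genes left out by name. The 38 were among 4957 gene features in all, and each was printed as a pair of spots, 76 spots in total. All 38 gave a value on both arrays, so no member was lost to the filter on spot quality, and 4814 features entered the test. In some members the filter left 1 of the 2 spots on an array. In the ASM294v3 gene table the 38 genes lie in the order SPAC1039, SPAC922, SPAC869, SPAC186, SPAC750 from the inner side outwards, and SPAC750.08c is the outermost protein-coding gene listed. Only names and the order of genes were taken from the table. One feature, SPAC922.08c, carries an older name of SPAC869.11, a gene the rule leaves out by its newer name. It was kept, since the rule goes by the name on the array.

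The series compared a double mutant of tup11 and tup12, labelled Tup11,12D, with a wild-type strain, labelled WT. Both grew exponentially in rich medium, and for the mutant of array 1 the labels name YES medium and 30 degrees. Separate RNA preparations of both strains were hybridised together on 2 arrays with the dyes exchanged between them. Every value therefore has n = 2, and p-values speak only for these 2 arrays. They rest mostly on a spread pooled over all tested features, and little on how well the 2 values of a gene matched. The labels give no strain background, mating type or number of clones. By the labels the mutant carried Cy3 on array 1 and Cy5 on array 2. The file headers name neither dye nor strain for the first and second set of signal columns. Judged by local background alone, the dyes had changed places between these sets from one array to the other. The first set, called the first channel here, was therefore read as the mutant on both arrays, and if it were the wild type every sign given here would turn.

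Genes near the chromosome ends of fission yeast lie next to the heterochromatin of the telomeres. Many of them are weakly expressed in rich medium and encode transporters and enzymes for scarce nutrients, and some occur in similar copies at several ends. Tup11 and Tup12 are related corepressors without DNA binding of their own, which sequence-specific factors bring to promoters, where they act together with the partner Ssn6 and with histone deacetylases.

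The median signal of gene spots was between 1340 and 4238 in the 4 channels. Across 4814 features, which are not independent replicates, the ratios of array 1 and array 2 had a correlation of r = 0.55. The feature named tup1, which matched no gene in the table, was lower in the mutant at -2.37 on array 1 and -1.86 on array 2 (log2). The feature of tup11 stood at 0.95 and -0.11 (limma adjusted p = 0.49) and was well above background in all 4 channels, with mutant signals of 4108 and 1695. Its signal was thus not lost in the mutant. Whether its probe lies in the deleted part is not given, so it does not check the label, and no feature was matched to tup12.

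Most genes of this chromosome end did not differ between the strains by the test. Of the 38 members, 1 was higher in the mutant, 3 were lower and 34 were not called, where a call means an adjusted p under 0.05 in limma over all 4814 features. Over all features 2.35% were called higher and 0.976% were called lower (3.32% in either direction). One higher call is near the background share, and the 3 lower calls were SPAC186.05c, SPAC750.01 and SPAC750.05c, all in the outer 2 cosmids. The single higher call, SPAC1039.06, lies in the innermost cosmid. At an unadjusted p under 0.05 there were 8 members, 5 higher and 3 lower. Over all features the shares were 7.89% higher and 8.14% lower, so the lower count was near the background share and the higher count somewhat above it.

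The median log2 ratio of mutant over wild type was 0.09 for the members and 0.01 for all features, with member medians of 0.14 on array 1 and 0.09 on array 2. The mean ratio lay above 0 in 25 members and below 0 in 13, against 2457 and 2357 of all features. It was under 0.5 in size in 29 of 38 members (76.3%), against 86.0% of all features. Both arrays had the same sign in 24 members, against 59.7% of all features, and opposite signs in 14. Of the 24, 16 were positive and 8 negative, against 1448 and 1427 of all features. One member, SPAC186.05c, was at least 2-fold lower on both arrays, against 0.374% of all features. None was at least 2-fold higher on both, against 1.52% of all features.

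**Figure D1:**
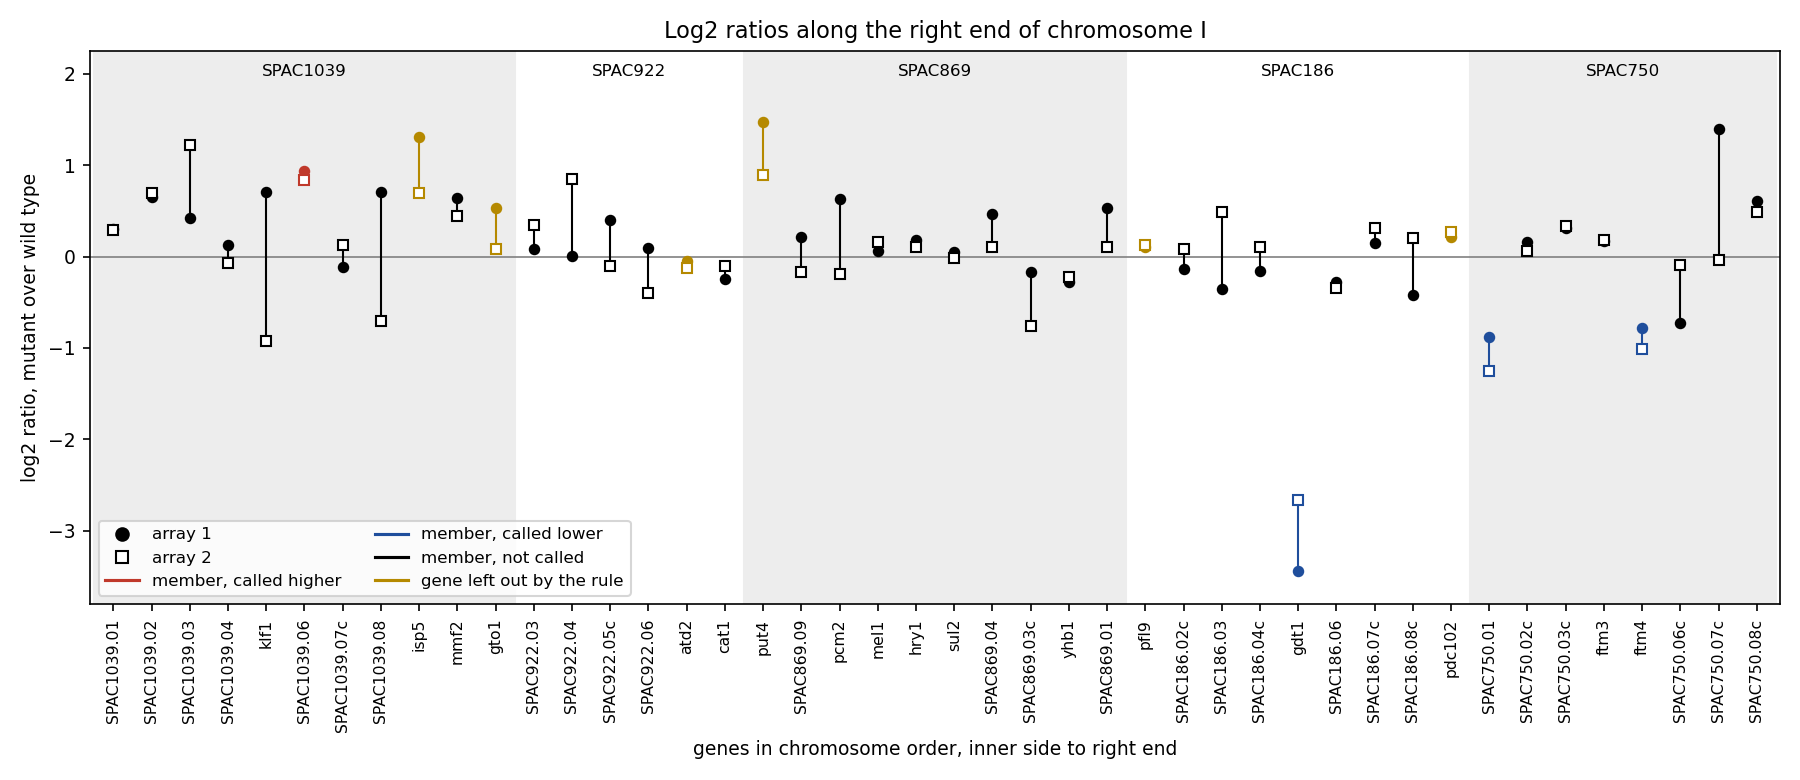
Log2 ratio of mutant over wild type (vertical axis) for the 38 members and 6 left-out genes in chromosome order from the inner side to the right end (horizontal axis), with filled circles for array 1 and open squares for array 2 joined by a line, and shading by cosmid. Most genes lie near 0, gdt1 lies lowest at -3.43 and -2.66, and both other lower calls lie in SPAC750.

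A large share of the region was dim. A channel was taken as well above background when the background-subtracted signal of a feature was above the 95th percentile of the 96 spots that carried DNA of the bacterial genes aceF and kdtA. By that rule 13 of the 38 members passed in no strain on either array, 15 passed in all 4 channels and 10 in some of them. Over all tested features 12.5% passed in none and 64.4% passed in all. The 13 dim members had mean ratios from -0.11 to 0.68 and none was called, and a ratio between signals near background says little about the transcript. Of these 13, 11 had a mean above 0, against 354 of the 604 tested features that passed in no channel. Both arrays were positive in 8 of the 13. The median log2 ratio was 0.17 in these 13, 0.01 in the 15 that passed in all 4 channels and -0.20 in the other 10. Over all tested features the median was 0.06 where no channel passed and 0.025 where all 4 passed. By cosmid, the dim members numbered 0 of 9 in SPAC1039, 1 of 5 in SPAC922, 4 of 9 in SPAC869, 4 of 7 in SPAC186 and 4 of 8 in SPAC750. The share of dim genes was thus higher in the outer than in the innermost cosmid, and it limits what can be read there.

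**Figure D2:**
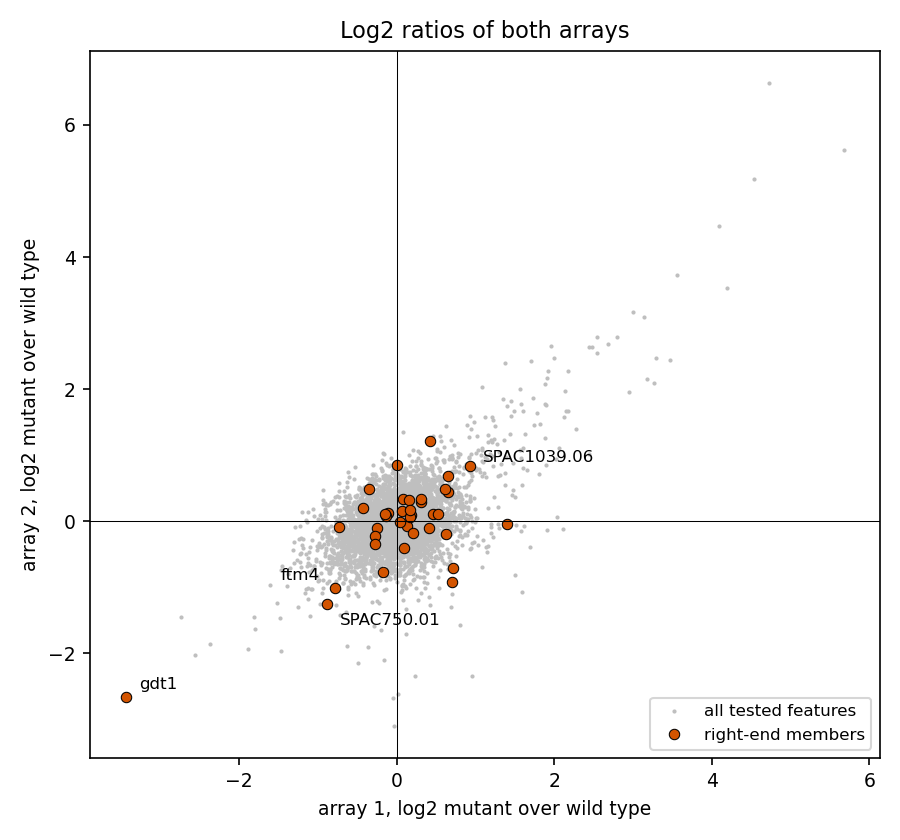
Log2 ratio on array 1 (horizontal axis) against array 2 (vertical axis) for all 4814 tested features in grey and the 38 members in orange, with the 4 called members named. The gdt1 feature stands apart from the other members at the lower left, and no member lies among the strongly higher features at the upper right.

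In the innermost cosmid, SPAC1039, 9 features were measured and their median log2 ratio was 0.30, the highest of the 5 cosmids. All 9 were detected in at least 1 channel. SPAC1039.06 was called higher. Its normalised signal was 2097 in the wild type and 4011 in the mutant on array 1, and 1249 and 2225 on array 2. The mutant was the brighter strain on both arrays, by 1.91-fold and 1.78-fold. The value of array 1 came from 1 spot, and that of array 2 from 2 spots at 0.98 and 0.68. The mean log2 ratio was 0.88 ± 0.07 (SD, n = 2), a 1.85-fold increase with a 95% interval of 0.44 to 1.33 on the log2 scale (limma adjusted p = 0.0449). This is close to the threshold, and the call was lost in 5 of 10 other processings, described in the closing section. The gene table lists it by locus tag alone, as it does for 27 of the 38 members, and no role is given for those.

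The neighbours of SPAC1039.06 differed in how well the arrays matched. SPAC1039.02 stood at 0.65 on array 1 and 0.69 on array 2 (limma adjusted p = 0.121), from 1 spot on each array, not the same one of the pair. SPAC1039.03 stood at 0.42 and 1.22 (adjusted p = 0.115), with a wild type that was well above background on array 1 and not on array 2. Both were higher in the mutant on both arrays without passing the test over all features. The gene mmf2 (SPAC1039.10), of the Mmf1 protein family of mitochondria, stood at 0.64 and 0.45 (adjusted p = 0.218), and in it 1 of 4 channels was well above background. SPAC1039.01 gave nearly the same value on both arrays, 0.30 and 0.29 (adjusted p = 0.526).

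The remaining 4 members of SPAC1039 had means close to 0 in unlike ways. SPAC1039.04 and SPAC1039.07c lay within 0.13 of 0 on both arrays. By contrast, klf1 (SPAC1039.05c), which encodes a zinc finger transcription factor, stood at 0.70 on array 1 and -0.92 on array 2, and SPAC1039.08 at 0.71 and -0.71. The SD of klf1 was 1.15, against a median SD of 0.18 among members. With all 4 channels above background in both genes, the arrays contradicted each other, and no level of change can be given for either. The value of klf1 on array 2 and that of SPAC1039.08 on array 1 each came from 1 spot. The spots of SPAC1039.08 on array 2 gave -1.12 and -0.30. With code 3 spots kept, the mean of klf1 was 0.08. The mean of klf1, -0.11, was the lowest in the cosmid.

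In SPAC922, next outwards, 5 features were measured, none was called, and means ranged from -0.18 to 0.43. SPAC922.04 had the highest mean, from 0.00 on array 1 and 0.85 on array 2 (limma adjusted p = 0.447). It was bright, with normalised signals of 21246 to 38335, and it was the only member with a saturated spot, which compresses a ratio. The lowest mean was that of cat1 (SPAC922.08c), a cationic amino acid permease gene, at -0.25 and -0.11 (adjusted p = 0.739), with all 4 channels above background. SPAC922.05c and SPAC922.06 differed in sign between the arrays, at 0.40 and -0.10 and at 0.09 and -0.40. SPAC922.03 was not well above background in either strain.

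In SPAC869, 9 features were measured, none was called, and all 9 means lay within 0.5 of 0. The highest, SPAC869.01, stood at 0.53 and 0.10 (limma adjusted p = 0.523) and was not well above background in any channel. The lowest, SPAC869.03c, was well above background throughout and stood at -0.17 and -0.76 (adjusted p = 0.341). Of genes with known products, sul2 (SPAC869.05c), which encodes a sulfate transporter, gave 0.04 and -0.02, with normalised signals of 4234 to 4367 on array 1 and 9245 to 9353 on array 2. The gene hry1 (SPAC869.06c) gave 0.19 and 0.10. In these 2 well detected genes the averages over spots differed between the strains by at most 1.14-fold on either array. Single spots disagreed more. Those of hry1 gave 0.51 and -0.14 on array 1, and 0.30 and -0.09 on array 2. Those of sul2 gave -0.20 and 0.28 on array 1, and its value on array 2 came from 1 spot. A larger difference between the strains is thus not excluded for either gene.

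The other 3 named genes of SPAC869 were not detected in every channel. The gene yhb1 (SPAC869.02c), which encodes a flavohemoglobin that detoxifies nitric oxide, stood at -0.28 and -0.22 (limma adjusted p = 0.594), with a mutant not well above background and a wild type that was, on both arrays. The gene pcm2 (SPAC869.08), for a protein isoaspartate methyltransferase, stood at 0.63 and -0.19 (adjusted p = 0.73). The alpha-galactosidase gene mel1 (SPAC869.07c) was dim in all 4 channels, at 0.06 and 0.16. SPAC869.04 and SPAC869.09 were also dim, at 0.46 and 0.11 and at 0.21 and -0.17.

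SPAC186 held the largest decrease among the members. Its gene gdt1 (SPAC186.05c) encodes a member of a family of Golgi membrane proteins that, in budding yeast and human, transport calcium and manganese ions. The normalised signal was 2522 in the wild type and 233 in the mutant on array 1, and 4076 and 644 on array 2. The wild type was well above background on both arrays and the mutant on neither. The log2 ratio was -3.43 on array 1 and -2.66 on array 2, with a mean of -3.05 ± 0.55 (SD, n = 2; limma adjusted p = 8.5e-05). Since the mutant was not well above background, the fold is a bound that depends on the floor chosen. With the floor used here it was at least 4.84-fold lower in the mutant. For the bound, the mutant signal on each array was raised, where it was lower, to that of the dimmest feature still well above background. Some features that were not well above background had high normalised mutant signals, such as 873 for SPAC922.06 on array 1 and 1054 for SPAC186.06 on array 2. A floor at such levels would give a smaller fold. Single spots gave -3.17 and -3.70 on array 1 and -2.66 on array 2, where the other spot had been left out for its quality code. With that spot kept, array 2 stood at -3.10.

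The genes on either side of gdt1 showed no comparable value. SPAC186.04c, the next gene inwards, stood at -0.16 and 0.10 (limma adjusted p = 0.969) and was dim in all 4 channels. SPAC186.06, the next gene outwards, stood at -0.28 and -0.35 (adjusted p = 0.493), with 3 of 4 channels above background. The low value of gdt1 was thus not seen in its measurable outer neighbour, and the inner one was too dim to read.

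The other members of SPAC186 were mostly near background. SPAC186.02c was well above background in all 4 channels and stood at -0.13 and 0.08. SPAC186.07c had the highest mean of the cosmid, from 0.15 and 0.32 (limma adjusted p = 0.635), with normalised signals of 295 to 371 and no channel above background. SPAC186.03 and SPAC186.08c, both dim, went in opposite directions on the arrays, at -0.36 and 0.49 and at -0.42 and 0.21.

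**Figure D3:**
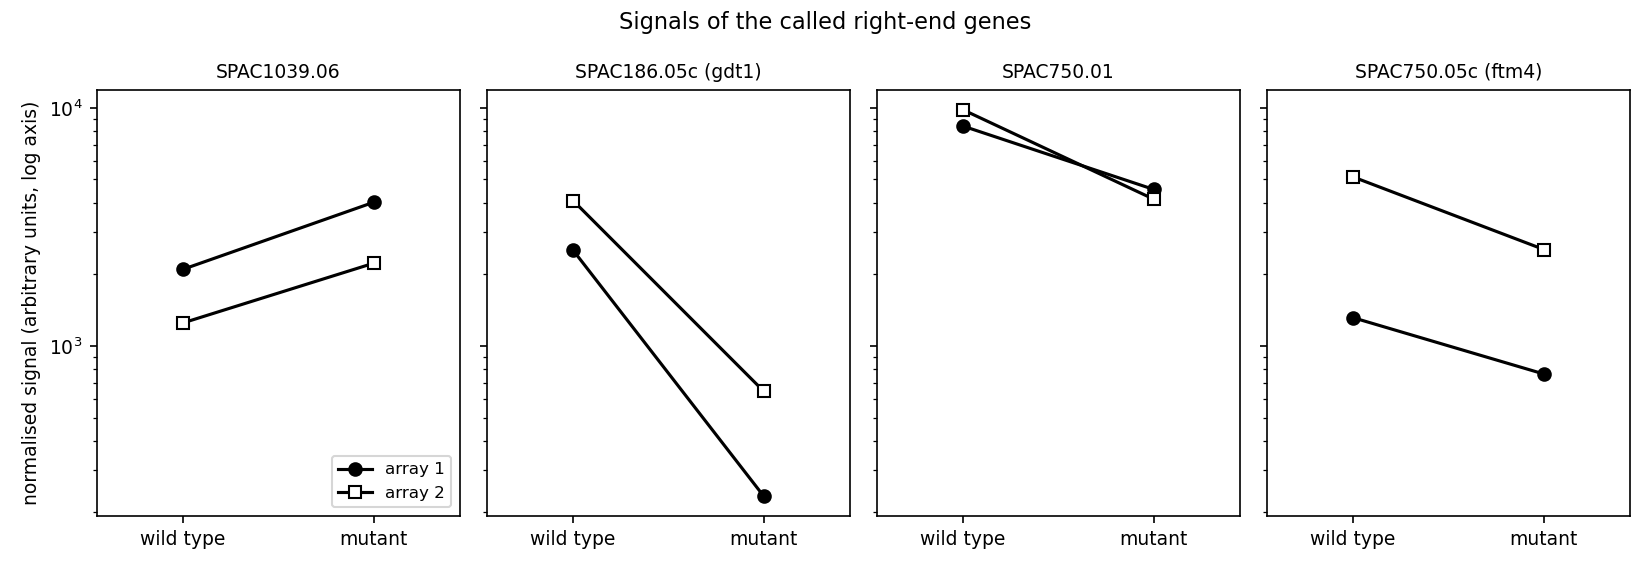
Normalised signal (vertical log axis, arbitrary units) of the 4 called members in wild type and mutant, with filled circles for array 1 and open squares for array 2. SPAC1039.06 lies higher in the mutant on both arrays, and gdt1, SPAC750.01 and ftm4 lie lower, gdt1 by far the most.

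In SPAC750, the outermost cosmid, 8 features were measured and 2 were called, both lower. SPAC750.01 had normalised signals of 8375 in the wild type and 4538 in the mutant on array 1, and 9804 and 4128 on array 2. All 4 channels were well above background. The filter on spot quality left 1 spot on array 1 and 2 spots on array 2. The log2 ratio was -0.88 and -1.25, with a mean of -1.07 ± 0.26 (SD, n = 2), which is 2.09-fold lower (limma adjusted p = 0.0212). The call was lost in 4 of 10 other processings, in which the mean lay between -1.20 and -0.97.

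The second was ftm4 (SPAC750.05c), with normalised signals of 1313 in the wild type and 762 in the mutant on array 1, and 5122 and 2539 on array 2. Its mean log2 ratio was -0.90 ± 0.16 (SD, n = 2), which is 1.86-fold lower (limma adjusted p = 0.0448), with a mutant that was well above background on array 2 alone. The small SD hides a split between its spots on array 1, which gave 0.29 and -1.86, whereas those on array 2 gave -1.14 and -0.89. The call therefore rests on an average of unlike spots on array 1, and with the first set of spots alone the mean was -0.42 (limma adjusted p = 0.675) and with the second set -1.37 (adjusted p = 0.0374).

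Other genes of the ftm name were looked up by symbol after these values had been seen. The gene ftm3 (SPAC750.04c), next to ftm4, was dim and stood at 0.17 and 0.18. Of those outside the region, ftm1 (SPAC977.01) was the only one well above background, at -1.32 and -0.43 (limma adjusted p = 0.104), while ftm2 stood at 0.03 and 0.47 and ftm7 at -0.03 and -0.09. Genes of chromosome ends can be close in sequence, and a feature may then read several of them. Sequences were not used here, so how far ftm1 and ftm4 share signal was not tested.

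The outermost gene, SPAC750.08c, was well detected and stood at 0.61 and 0.49, with a mean of 0.55 ± 0.09 (limma adjusted p = 0.209). SPAC750.06c, which lies between ftm4 and SPAC750.07c, stood at -0.73 and -0.09 (adjusted p = 0.426). SPAC750.07c had the highest mean of the cosmid, at 0.68 ± 1.01, made of 1.40 on array 1 and -0.03 on array 2 (adjusted p = 0.312), with no channel above background. SPAC750.02c and SPAC750.03c were dim and lay between 0.07 and 0.33. Of the 8 means in the cosmid, 5 lay above 0 and 3 below, and 4 of the 5 above 0 belonged to genes with no channel above background.

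Of the 6 left-out genes with a feature, put4 (proline permease) stood at 1.48 and 0.89 and isp5 (amino acid permease) at 1.31 and 0.70. Both were called higher (limma adjusted p = 0.0175 and 0.042). The value of isp5 on array 2 averages unlike spots, at -0.01 and 1.40. The genes gto1, atd2, pfl9 and pdc102 were not called and had means from -0.09 to 0.31. With the left-out genes, 3 of 44 features of the stretch were called higher and 3 lower (6.82% each), against 2.35% and 0.976% of all features.

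Position along the chromosome was described in 2 ways. The 50 protein-coding features next to the region on its inner side had a median of 0.01 over the 47 that were tested, with 1 called higher (hsp9) and 1 called lower (SPAC3G6.05, at -2.30). Thus 2 of 47 inner features and 4 of 38 members were called, against 3.32% of all features. The difference between these shares was not tested. Among 42 pairs of neighbouring genes within the stretch, left-out genes included, 26 (61.9%) had means of the same sign, against 52.0% of 4193 neighbouring pairs over the genome. Means lay above 0 in 30 of the 44 features of the stretch, against 2457 of 4814 over all features. The shares of pairs do not allow for this difference. The median difference within a pair was 0.29 in the stretch and 0.30 over the genome.

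Neighbours on the chromosome were also often neighbours on the glass, since the member spots lay in 12 of the 48 printed blocks. Medians of the gene spots of these blocks ranged from -0.16 to 0.36 on array 1 and from -0.38 to 0.28 on array 2. The block holding one spot each of gdt1 and ftm4 had both the highest median on array 1 and the lowest on array 2, 0.36 and -0.38. When each block was normalised on its own (print-tip loess), gdt1 stood at -3.12, SPAC750.01 at -1.11, ftm4 at -0.81 and SPAC1039.06 at 0.72, all called. Members called higher then numbered 5, of which 4 lay in SPAC1039 (SPAC1039.02, SPAC1039.03, SPAC1039.06 and mmf2) and 1 was SPAC750.07c, and 3 remained lower.

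**Figure D4:**
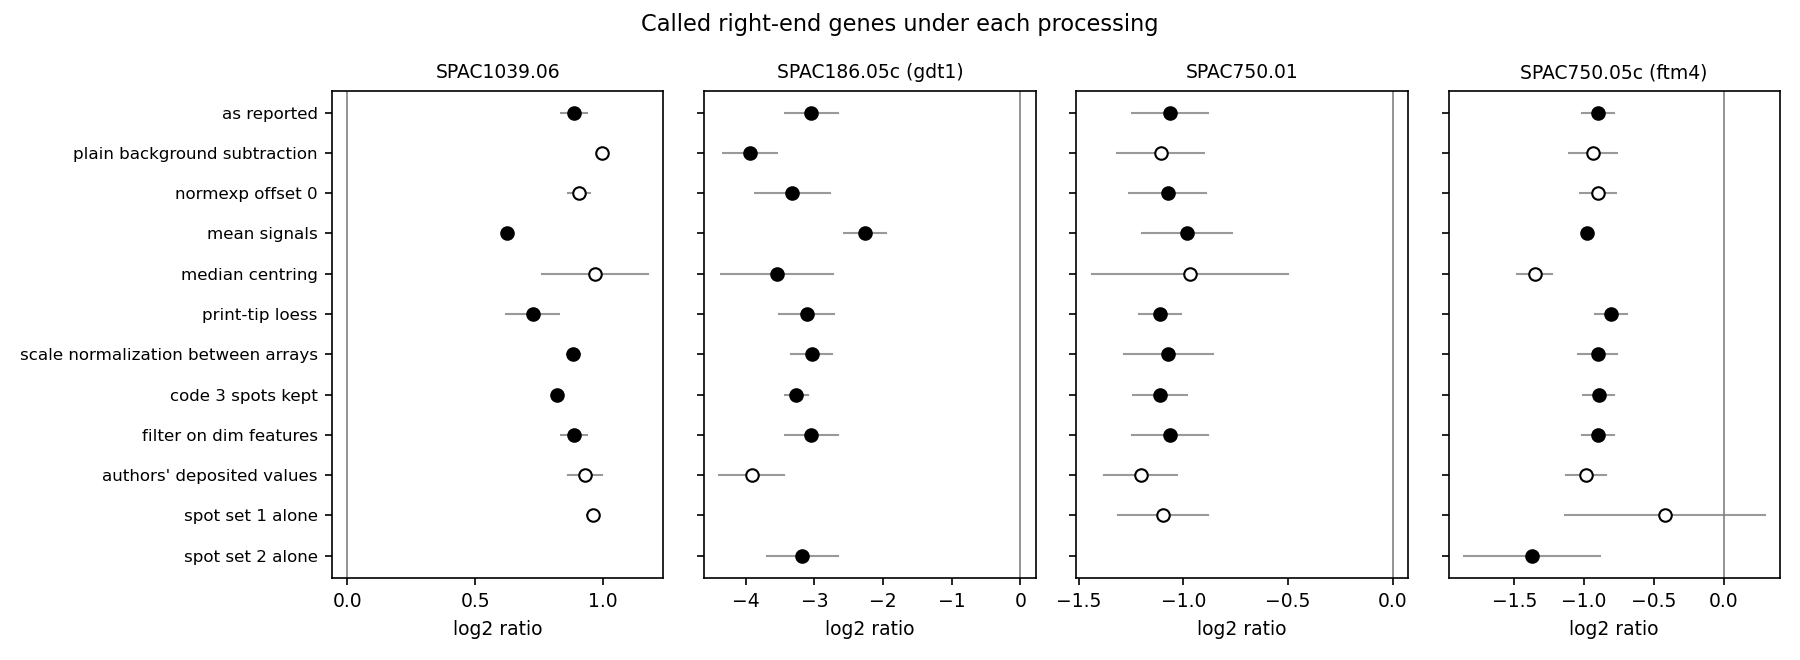
Mean log2 ratio of mutant over wild type (horizontal axis, a range of its own per gene) of the 4 called members under each processing (vertical axis), with a grey line between the values of the arrays, filled points where the adjusted p was under 0.05 and open points where it was not. All means keep their sign, and gdt1 is called in each processing that gave it a value except the authors' deposited values.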

How the data were processed

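Two-colour spotted arrays gave spot intensities on a linear scale, deposited as foreground and local background per channel, per the file headers, with a quality code (0, 2 or 3) of unstated meaning. The authors also deposited log10 values, which they had normalised by Lowess according to the series design text. The first channel as numerator was read from their correlation with the scanner log ratios (r = 0.96 and 0.89). A correlation does not depend on the log base, so it leaves the log10 scale unchecked. Medians of the deposited values were -0.01 and 0.02. The titles write mutant over wild type, but nothing ties these columns to that order. Mean local background changed places between channels from array to array (1.80 and 408, then 753 and 12.5). With the dyes exchanged by the labels, the first channel was therefore taken to hold the same strain on both arrays. It was read as the mutant because the titles name the mutant first.

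Median signals were corrected with normexp (offset 50) and normalised by 1 loess curve per array, with weight 0 for 1546 control spots and code 3 spots. Code 3 spots were left out, spots of a feature averaged, and log2 ratios fitted with limma 3.58.1 in R 4.3.3 (lmFit, eBayes, Benjamini-Hochberg over 4814 features). With 1 residual degree of freedom per feature, most of the error came from the prior (8.49 of 9.49), which such data estimate imprecisely. The fit was also run on values simulated from its own estimated prior. Such values hold no dye, block or spot effects, so the run does not check for these. Per-channel signals came from loess and Aquantile. The image software is not given in the sources used here. Precision is limited by the number of arrays.

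Of the 38 members, 37 were matched to ASM294v3 by locus tag and 1 by synonym. Values per array were set out for called members and the highest and lowest of each cosmid, and others are given in brief. The members and lists were chosen with earlier results of these data known. A planned search of promoters and of similar proteins was not made, as sequences were not used here. Alternatives covered background correction, signal column, normalisation, quality code, dim features, the authors' values and single arrays.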

Additional observations from a re-analysis of the deposited data

How the results depend on the processing

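The direction of all 4 called members was kept in every processing that gave them a value. Their calls were less stable, and only gdt1 was called in nearly all. Over its 10 other processings with a value, gdt1 ranged from -3.94 with plain background subtraction to -2.26 with mean signals, and lost the call with the authors' deposited values alone (-3.91, limma adjusted p = 0.0835). SPAC750.01 was called in 6 of 10 (means from -1.20 to -0.97), ftm4 in 6 of 11 (-1.37 to -0.42) and SPAC1039.06 in 5 of 10 (0.62 to 0.995, of which 0.91 to 0.995 where the call was lost). Members called higher moved from 1 to 0 with plain background subtraction, a normexp offset of 0, median centring, the authors' deposited values and either set of spots alone. They moved to 2 with mean signals, 3 with a filter on dim features and 5 with print-tip loess. Members called lower moved from 3 to 1 with plain background subtraction and median centring. They moved to 2 with a normexp offset of 0 and with the second set of spots alone. They moved to 0 with the authors' deposited values and with the first set of spots alone. The second set of spots gave no test for SPAC1039.06 and SPAC750.01, and the first set none for gdt1. For these genes the lower counts reflect a missing value and not a lost call. Where no member was called in limma, 7 members had an unadjusted p under 0.05 with the authors' values and 4 with the first set of spots. Calls over all features also moved from 160, to 38 with median centring, 60 with plain subtraction, 279 with the filter, 370 with print-tip loess, 373 with mean signals and 0 with the authors' values. The median of the members moved from 0.09 to 0.0197 with plain subtraction, 0.0041 with the filter (24 members left) and -0.20 with median centring, where the median of all features was -0.06. It was 0.1405 without array 2 and 0.0912 without array 1. At least 2-fold on both arrays in place of a shared sign left 1 member of 24. Without SPAC922.08c both counts were the same. The cause of these shifts was not tested, apart from fewer features under the filter and fewer spots in a single set. The use of single sets of spots and the omission of SPAC922.08c were chosen after seeing the data. Each ratio already pairs mutant and wild type within an array. No paired analysis was possible because, beyond that, the ratios form 1 group with no second group to share a replicate number. Signal over background limits 13 of the 38 members.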
